A study of Mus musculus with 12 samples.

Results

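Expression of 8 genes known from mast cells and basophils (Cpa3, Fcer1a, Ms4a2, Mcpt8, Gata2, Hdc, Tpsab1 and Il4ra) was followed across 12 arrays of sorted mouse bone marrow cells. The genes were taken by name, and a probe set was used where the platform annotation gave it exactly 1 gene symbol and that symbol was one of the 8. This gave 13 probe sets, of 28805 with a single symbol, and 8 genes of 15858 in all. Cpa3, Fcer1a, Mcpt8 and Tpsab1 had 1 probe set each, Ms4a2, Gata2 and Hdc had 2, and Il4ra had 3. A gene's value is the mean of its probe sets.

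The arrays fall into 4 groups of 3. In every group the cells were C57BL6 bone marrow cells immortalised with HoxA9, a homeobox factor that keeps myeloid progenitors dividing, and were transplanted into irradiated mice. Retroviral constructs defined 3 of the groups: empty vector, wild-type isocitrate dehydrogenase 1 (IDH1wt) and mutant isocitrate dehydrogenase 1 (IDH1mut), an enzyme form whose product is R-2-hydroxyglutarate (R-2HG). Recipients in the fourth group, called R-2HG here, carried empty vector cells and received that metabolite, 1 mg each day over 4 weeks. GFP-positive cells were sorted from the marrow 4 weeks after transplantation. For the fourth group 1 label field speaks of the IDH1mut vector, but the titles, the sources, the constructs and the design all give the empty vector, which was followed. The labels give no age of the animals and leave unsaid whether each replicate was a mouse of its own, so p-values cover the spread among these samples, possibly technical, and no more. The deposited log2 values are centred for each probe set. They show differences between arrays and no absolute level, so the presence of mast cells or basophils in the sort could not be checked from them, and no gene's level can be set against another's. In sorted bulk RNA, fewer cells of a type and less RNA per cell cannot be told apart.

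Mast cells and basophils are granulocytes that carry the high-affinity IgE receptor, a complex of an IgE-binding alpha chain (Fcer1a), a signal-amplifying beta chain (Ms4a2) and a shared gamma chain (Fcer1g). Crosslinking of IgE on the receptor releases granules that hold histamine, made by histidine decarboxylase (Hdc), and proteases, among them carboxypeptidase A3 (Cpa3), the tryptase Tpsab1 and the basophil protease Mcpt8. The zinc finger factor GATA2 is needed for the development of both cell types and binds the DNA core GATA, and the interleukin-4 receptor alpha chain (Il4ra) receives interleukin 4, a cytokine that basophils also secrete.

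The promoters of Cpa3, Fcer1a and Ms4a2 are shown because a GATA factor is itself one of the 8 genes, these 3 hold the letters AGATAA on one strand or the other, and they lay among the genes furthest below empty vector on 2 of the R-2HG arrays. Each is the 250 bases before the annotated gene start, from RefSeq on build GRCm38.p6, written 5′ to 3′ along the gene, which lies on the minus strand in all 3. They span chr3:20242182-20242431 for Cpa3, chr1:173227230-173227479 for Fcer1a and chr19:11623720-11623969 for Ms4a2. Capitals mark matches to AGATAA or AGATAG and likewise to TGATAA or TGATAG on either strand, so that TTATCT is AGATAA on the opposite strand.
Cpa3: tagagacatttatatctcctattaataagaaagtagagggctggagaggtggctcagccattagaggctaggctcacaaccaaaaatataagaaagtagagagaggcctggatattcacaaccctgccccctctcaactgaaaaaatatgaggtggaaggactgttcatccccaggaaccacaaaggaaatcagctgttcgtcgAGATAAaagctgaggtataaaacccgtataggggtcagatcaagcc
Fcer1a: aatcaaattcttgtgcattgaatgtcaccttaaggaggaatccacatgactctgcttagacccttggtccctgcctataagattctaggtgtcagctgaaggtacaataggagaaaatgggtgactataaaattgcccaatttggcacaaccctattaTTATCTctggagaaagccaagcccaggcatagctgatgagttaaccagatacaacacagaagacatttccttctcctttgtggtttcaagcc
Ms4a2: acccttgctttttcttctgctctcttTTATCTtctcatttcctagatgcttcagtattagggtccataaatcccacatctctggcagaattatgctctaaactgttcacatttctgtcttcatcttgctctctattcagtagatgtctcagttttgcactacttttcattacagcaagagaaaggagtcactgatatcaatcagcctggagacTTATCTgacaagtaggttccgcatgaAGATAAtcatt
The match in Cpa3 began at base -46 from the gene start and that in Fcer1a at -92. Ms4a2 held 3 matches, at -224, -37 and -11, none overlapping another. The Hdc promoter held TGATAG at -221, and those of Mcpt8, Gata2 and Il4ra held none of these letters in this window. Of the 8 genes 7 had a promoter in the RefSeq table, Gata2 with 2 of them, and 4 genes held a match. Of 32851 promoters of the same length, 26.5% held at least 1 match and 6.4% at least 2. A match describes these letters and is no measured binding site.

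Cpa3, Fcer1a, Ms4a2, Mcpt8, Gata2 and Hdc had one pattern in common: R-2HG replicates 1 and 2 lay below all other 10 arrays, and R-2HG replicate 3 did not. The same held for 18.8% of all 15858 genes. The difference between the mean of R-2HG replicates 1 and 2 and the empty vector mean was the lowest of all genes for Cpa3 (-6.58 on the log2 scale). It ranked 7 from the lowest for Fcer1a (-4.17), 15 for Mcpt8 (-3.22), 19 for Ms4a2 (-3.03), 36 for Hdc (-2.72) and 214 for Gata2 (-1.39). Tpsab1 (0.022, rank 8227) and Il4ra as the mean of its 3 probe sets (-0.20, rank 4843) did not share the pattern. The Il4ra probe set 1421034_a_at taken alone did, at -0.40, -0.30 and 0.081 in R-2HG replicates 1 to 3. R-2HG replicate 3 stood 0.11 from the empty vector mean for Cpa3, 0.58 for Fcer1a, 0.74 for Ms4a2, 0.89 for Mcpt8 and 0.59 for Gata2, all on the higher side, and -0.084 for Hdc. Over all probe sets, R-2HG replicates 1 and 2 differed with an SD of 0.178, the smallest of all array pairs. R-2HG replicate 3 differed from them with an SD of 0.350 and 0.362, above every pair within the other 3 groups (at most 0.289), and pairs from different groups had an SD of 0.294 to 0.555. The split of the R-2HG group is no label, and 1 array against 2 allows no test.

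**Figure D1:**
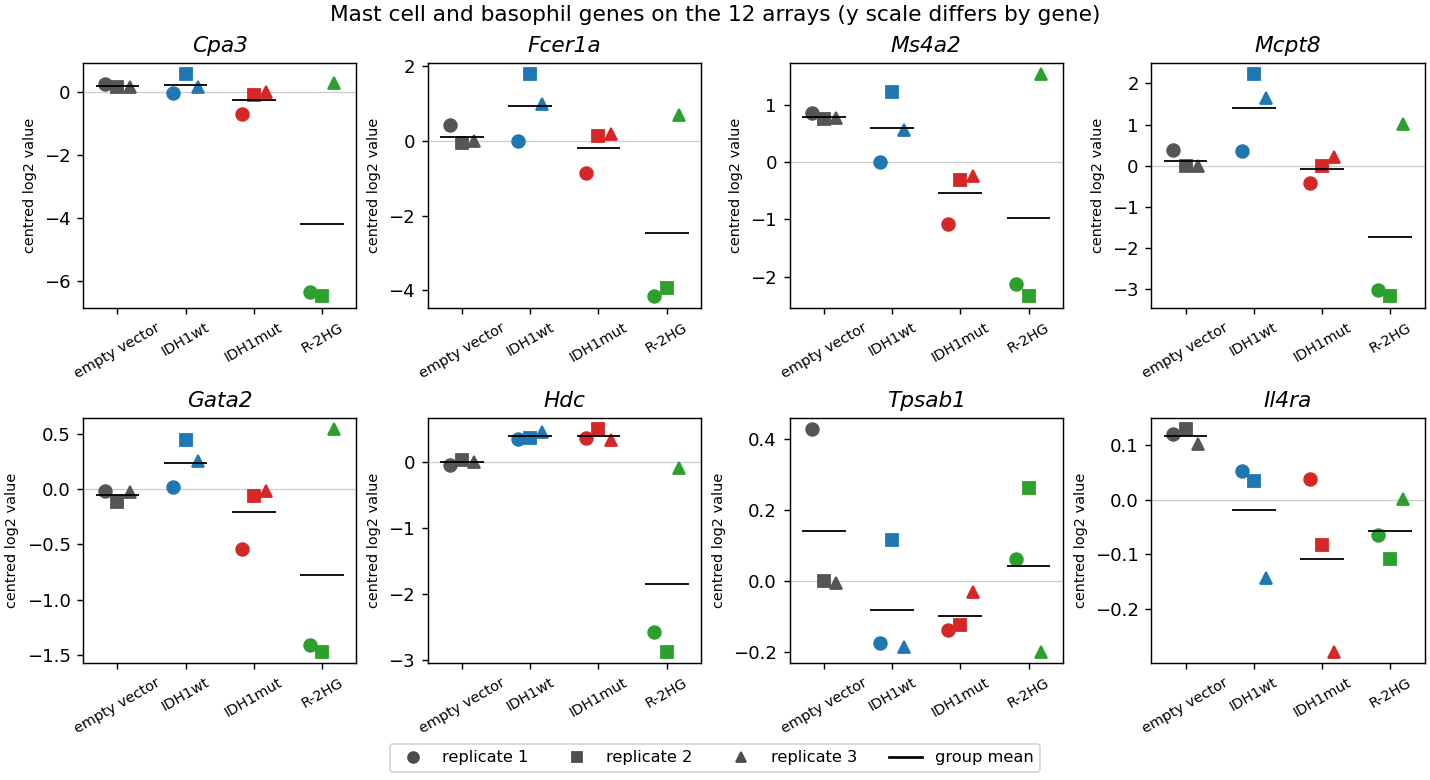
Centred log2 value (y axis, scale set for each gene) of the 8 genes on each of the 12 arrays by group (x axis), with circles, squares and triangles for replicates 1, 2 and 3 and a line at the group mean. In R-2HG the circle and square of Cpa3 lie at -6.33 and -6.48 and the triangle at 0.28, and 5 other genes are split the same way.

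Among the granule genes, Cpa3 stood at 0.25, 0.14 and 0.14 in empty vector replicates 1 to 3, -0.030, 0.56 and 0.16 in IDH1wt, -0.70, -0.11 and 0.00 in IDH1mut, and -6.33, -6.48 and 0.28 in R-2HG. The value of -6.48 was the lowest of the whole deposited table. R-2HG replicates 1 and 2 lay far below every other array, and replicate 3 lay above all empty vector and IDH1mut arrays. Mcpt8 stood at 0.38, -0.002 and -0.004 in empty vector, 0.35, 2.23 and 1.64 in IDH1wt, -0.42, 0.00 and 0.21 in IDH1mut, and -3.02, -3.18 and 1.02 in R-2HG. Its highest values were those of IDH1wt replicates 2 and 3, followed by R-2HG replicate 3.

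Hdc stood at -0.039, 0.043 and 0.00 in empty vector, 0.35, 0.38 and 0.46 in IDH1wt, 0.36, 0.50 and 0.34 in IDH1mut, and -2.58, -2.87 and -0.083 in R-2HG. All arrays of both IDH1 constructs lay above all empty vector arrays, and all R-2HG arrays below them. Both Hdc probe sets showed this order except R-2HG replicate 3 at 1451796_s_at, which at 0.00 lay within the empty vector range. Both carry the suffix _s_at, which marks probes that can match more than 1 transcript. Tpsab1 lay between -0.20 and 0.43 on all 12 arrays, with its highest value in empty vector replicate 1 and its lowest in R-2HG replicate 3. The tryptase genes Tpsab1 and Tpsb2 are close copies, so their probe sets may read each other's transcripts and their values are uncertain.

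Among the receptor genes, Fcer1a stood at 0.42, -0.063 and -0.003 in empty vector, 0.00, 1.79 and 0.99 in IDH1wt, -0.87, 0.13 and 0.18 in IDH1mut, and -4.17, -3.93 and 0.70 in R-2HG. Groups overlapped in every pair, and R-2HG replicate 3 lay above all empty vector and IDH1mut arrays. Ms4a2 stood at 0.85, 0.75 and 0.77 in empty vector, 0.00, 1.22 and 0.55 in IDH1wt, -1.08, -0.31 and -0.25 in IDH1mut, and -2.13, -2.34 and 1.53 in R-2HG. Every IDH1mut array lay below every empty vector and IDH1wt array, and R-2HG replicate 3 was the highest of the 12. The third chain of the receptor, Fcer1g, which other myeloid cells share, stood within -0.13 and 0.16 on all arrays.

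Il4ra differed little: its 12 values lay between -0.28 in IDH1mut replicate 3 and 0.13 in empty vector replicate 2. The empty vector arrays, at 0.12, 0.13 and 0.10, lay above all 9 others. Its 3 probe sets disagreed for R-2HG against empty vector, with log2 fold changes of -0.39 (1421034_a_at, adjusted p = 0.0176) and -0.32 (1423996_a_at, adjusted p = 0.0167) but 0.19 (1447858_x_at, adjusted p = 0.325), from limma over all probe sets, of which 39.5% were called.

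The transcription factor gene Gata2 stood at -0.016, -0.12 and -0.028 in empty vector, 0.015, 0.44 and 0.26 in IDH1wt, -0.54, -0.063 and -0.016 in IDH1mut, and -1.41, -1.47 and 0.54 in R-2HG. R-2HG replicate 3 was the highest array and replicates 1 and 2 were the lowest. On those 2 arrays its probe set 1450333_a_at read -2.05 and -1.96, and its probe set 1428816_a_at read -0.77 and -0.97.

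R-2HG against empty vector asks how R-2HG given to the recipients changed these genes without an IDH1 construct. Cpa3 was low on R-2HG replicates 1 and 2 and not on replicate 3, which stood at 0.28. Averaged over the 3 R-2HG arrays Cpa3 was lower, with a log2 fold change of -4.35 ± 1.3 (SE of the moderated fit, n = 3 per group, adjusted p = 0.0194), and so was Hdc (-1.84 ± 0.515, adjusted p = 0.014), by limma with Benjamini-Hochberg adjustment over all 15858 genes. These were 2 of 8 genes called at an adjusted p under 0.05, against 40.8% of all genes called, 24.3% lower and 16.5% higher. The other 6 did not pass: Fcer1a at -2.59 ± 0.989 (adjusted p = 0.0541), Ms4a2 at -1.77 ± 0.772 (0.0854), Mcpt8 at -1.85 ± 0.868 (0.107), Il4ra at -0.17 ± 0.0862 (0.126), Gata2 at -0.73 ± 0.404 (0.169) and Tpsab1 at -0.098 ± 0.139 (0.598). The median over the 8 was -1.81, beside 0.00297 over all genes. Groups did not overlap for Hdc and Il4ra, both lower in R-2HG, against 53.5% of all genes without overlap.

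The calls depended on which R-2HG arrays were in the fit. Replicate 3 stood apart on 6 of these 8 genes, so leaving it out lowers their SE and p by that choice. The R-2HG group is then 2 arrays, the closest pair of all arrays. The same limits hold for every comparison of R-2HG without replicate 3. Without replicate 3, 6 of the 8 genes fell, where 44.3% of all genes were called, with fold changes of -6.58 ± 0.198 for Cpa3 (adjusted p = 4.48e-09), -2.72 ± 0.0942 for Hdc (1.21e-08), -3.03 ± 0.304 for Ms4a2 (2.42e-05), -4.17 ± 0.43 for Fcer1a (2.83e-05), -1.39 ± 0.154 for Gata2 (4.57e-05) and -3.22 ± 0.403 for Mcpt8 (0.000101). Without replicates 1 and 2 the R-2HG group is 1 array, assumed in the fit to vary like the arrays of the other groups, so that SE and p carry no spread among R-2HG arrays. This holds for every comparison of R-2HG without these replicates. None of the 8 genes was then called in limma, where 11.5% of all genes were. Gata2 came nearest, at 0.59 ± 0.204 (adjusted p = 0.0883), and Cpa3 stood at 0.11 ± 0.261 (0.839). Gata2 was the only one of the 8 with an unadjusted p under 0.05 there (0.0152), which 28.1% of all genes had. The call of Cpa3 was also lost without R-2HG replicate 1 (adjusted p = 0.0846), R-2HG replicate 2 (0.0867) or empty vector replicate 2 (0.0513), and that of Hdc without R-2HG replicate 1 (0.0632) or 2 (0.0629). In a fit of the 6 arrays of these 2 groups neither Cpa3 (0.0758) nor Hdc (0.0634) was called, where 38.1% of all genes were and 3 of the 8 genes had an unadjusted p under 0.05 (50.1% of all genes). A second quantile normalization kept both calls at smaller fold changes, -2.27 ± 0.745 for Cpa3 (adjusted p = 0.0325) and -0.87 ± 0.243 for Hdc (0.0155). It moved Fcer1a to -1.05 (adjusted p = 0.24), Ms4a2 to -0.97 (0.234), Mcpt8 to -0.63 (0.484) and Gata2 to -0.18 (0.699).

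**Figure D2:**
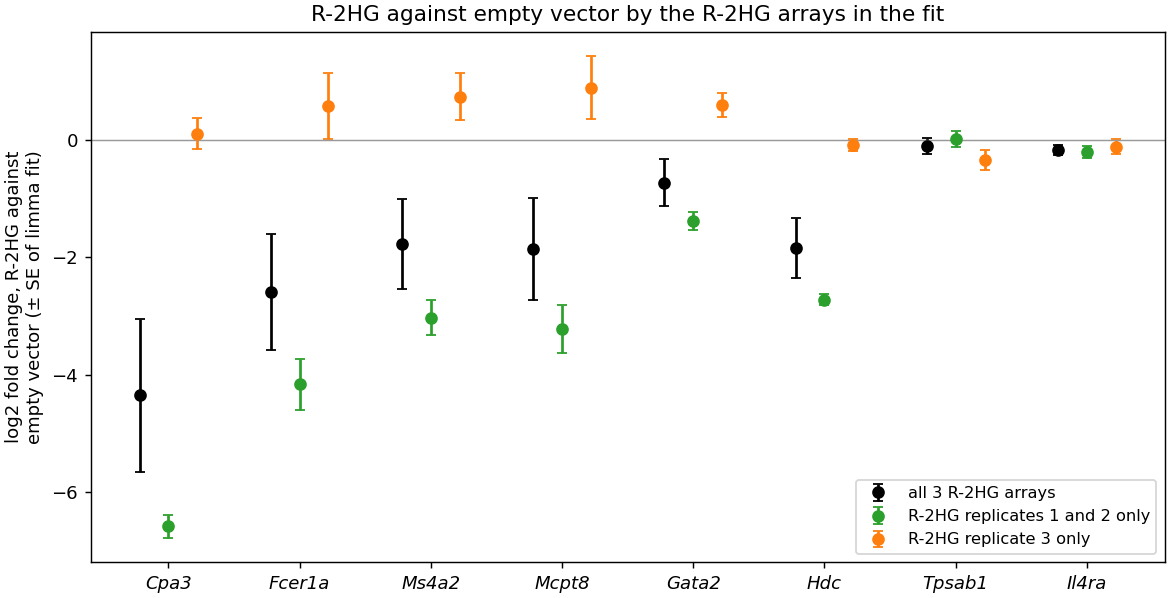
Log2 fold change of R-2HG against empty vector (y axis, ± SE of the limma fit) for the 8 genes (x axis), from all 3 R-2HG arrays (black), from replicates 1 and 2 (green) and from replicate 3 alone (orange, SE from the spread of the other groups). Cpa3 moves from -6.58 with replicates 1 and 2 to 0.11 with replicate 3, whereas Tpsab1 and Il4ra stay within 0.34 of 0.

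Against IDH1wt, the R-2HG group was lower in Cpa3 (-4.41 ± 1.3, adjusted p = 0.0173), Fcer1a (-3.39 ± 0.989, 0.0163), Mcpt8 (-3.13 ± 0.868, 0.0128) and Hdc (-2.24 ± 0.515, 0.00504) by limma, 4 of 8 where 44.4% of all genes were called and 23% were called lower. Gata2 stood at -1.02 ± 0.404 (adjusted p = 0.0585) and Ms4a2 at -1.57 ± 0.772 (0.117). Without R-2HG replicate 3 the same 6 genes as against empty vector were called lower (47.3% of all genes called). With R-2HG replicate 3 as the only R-2HG array, Hdc alone passed, at -0.48 ± 0.103 (adjusted p = 0.0218; 10.2% of all genes called), with an SE lent by the other groups. After quantile normalization the 4 calls held at -2.33 for Cpa3, -1.87 for Fcer1a, -2.19 for Mcpt8 and -1.30 for Hdc (adjusted p from 0.00184 to 0.0437). Without either R-2HG replicate 1 or 2 only Hdc of the 4 passed, and without IDH1wt replicate 2 Fcer1a did not (adjusted p = 0.0586).

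IDH1mut against R-2HG sets the mutant enzyme beside its product given from outside. Cpa3 (3.91 ± 1.3, adjusted p = 0.0356) and Hdc (2.24 ± 0.515, 0.00754) were higher in IDH1mut by limma, 2 of 8 where 36% of all genes were called and 20.3% were called higher. The Cpa3 call was lost without any 1 IDH1mut array (adjusted p from 0.0613 to 0.0899) and without R-2HG replicate 1 (0.139) or 2 (0.147). Without R-2HG replicate 3, Cpa3, Fcer1a, Ms4a2, Mcpt8, Gata2 and Hdc were all higher in IDH1mut (41% of all genes called). Against R-2HG replicate 3 alone, with an SE lent by the other groups and thus no spread within R-2HG, Hdc stood at 0.48 ± 0.103 (adjusted p = 0.045) and Ms4a2 at -2.08 ± 0.4 (0.0332), where 2.12% of all genes were called. After quantile normalization Cpa3 missed its call (1.73, adjusted p = 0.098) and Hdc passed at 1.26 (0.00477).

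IDH1mut against empty vector shares the empty vector arrays with the R-2HG comparison. With all 12 arrays, none of the 8 genes was called by limma, where 22.6% of all genes were (12.1% lower and 10.5% higher), and 1 (Il4ra) had an unadjusted p under 0.05, as 35% of all genes did (-0.22 ± 0.0862, adjusted p = 0.0846; 0.0345 without IDH1mut replicate 1). Groups did not overlap for 5 of the 8, against 41.1% of all genes: Cpa3, Ms4a2, Tpsab1 and Il4ra were lower on every IDH1mut array and Hdc was higher. The SE of this fit carries the spread of the R-2HG arrays, since the 4 groups share 1 estimate. Without R-2HG replicates 1 and 2, at unchanged fold changes, Ms4a2 fell in IDH1mut (-1.34 ± 0.283, adjusted p = 0.00709) and Hdc rose (0.40 ± 0.0728, 0.00335), where 23.3% of all genes were called. Both were also called without R-2HG replicate 3 (0.00406 and 0.00509; 25.9% of all genes called) and in a fit of the 6 arrays of these 2 groups (0.00267 and 0.00786; 22.2% of all genes called). Cpa3 (-0.45 ± 0.184, adjusted p = 0.109), Gata2 (-0.15 ± 0.144, 0.494), Fcer1a (-0.31 ± 0.4, 0.632) and Mcpt8 (-0.19 ± 0.376, 0.755) did not pass without R-2HG replicates 1 and 2.

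IDH1wt against empty vector gave none of the 8 genes with all 12 arrays by limma, where 1.35% of all genes were called. None had an unadjusted p under 0.05 either, which 16.2% of all genes had. Mcpt8 had the highest fold change, 1.28 ± 0.868 (adjusted p = 0.503; 0.126 without R-2HG replicates 1 and 2), with IDH1wt replicate 1 inside the empty vector range. Hdc stood at 0.39 ± 0.515 (adjusted p = 0.754). It was called higher without R-2HG replicates 1 and 2 (± 0.0728, adjusted p = 0.026; 1.51% of all genes called), without R-2HG replicate 3 (0.0365; 2.36% of all genes called) and in the fit of 6 arrays (0.0368; 1.78% of all genes called). Gata2 and Hdc were higher and Il4ra lower on every IDH1wt array than on every empty vector array, against 23.8% of all genes without overlap.

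IDH1mut against IDH1wt asks what the mutation adds to the enzyme. None of the 8 genes was called with all 12 arrays by limma, where 15.7% of all genes were called. None had an unadjusted p under 0.05, which 28.8% of all genes had. Ms4a2 (-1.14 ± 0.772, adjusted p = 0.369), Mcpt8 (-1.47 ± 0.868, 0.292) and Gata2 (-0.44 ± 0.404, 0.521) were lower on every IDH1mut array than on every IDH1wt array, against 32.7% of all genes without overlap. Without R-2HG replicates 1 and 2, Ms4a2 (± 0.283, adjusted p = 0.021) and Mcpt8 (± 0.376, 0.0236) were called lower (16.2% of all genes called), and without R-2HG replicate 3 so were Ms4a2 (0.0134), Mcpt8 (0.015) and Gata2 (0.0433), where 18.8% of all genes were called. In the fit of these 6 arrays alone none was called (11.6% of all genes called), and 5 of the 8 had an unadjusted p under 0.05, which 27.1% of all genes had. Hdc stood at 0.005 ± 0.0728 without R-2HG replicates 1 and 2 (adjusted p = 0.977).

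**Figure D3:**
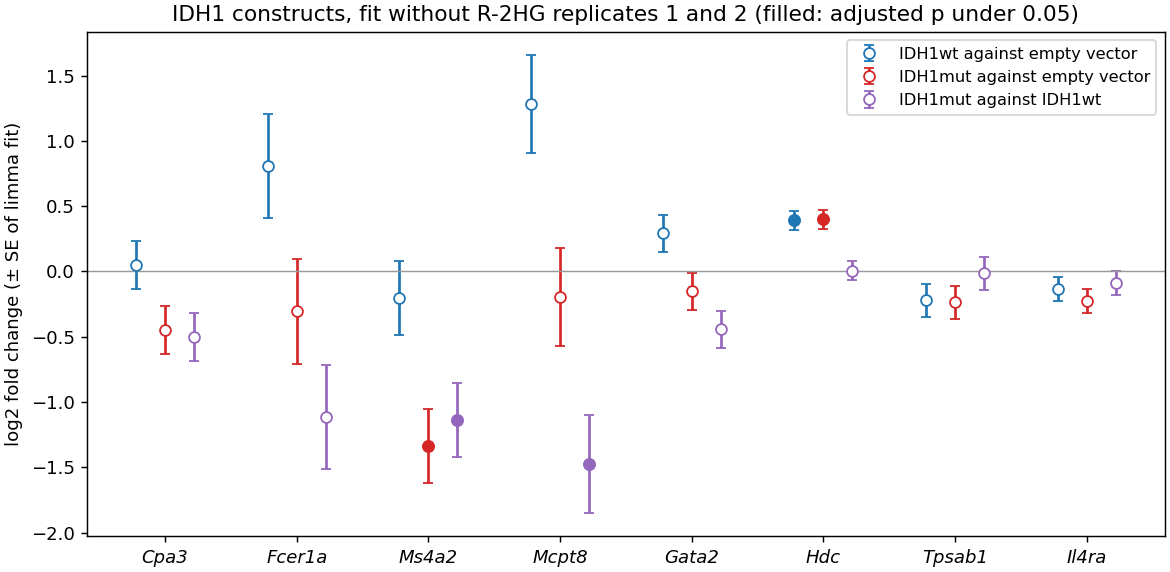
Log2 fold change (y axis, ± SE of the limma fit without R-2HG replicates 1 and 2) of the 8 genes (x axis) for IDH1wt (blue) and IDH1mut (red) against empty vector and IDH1mut against IDH1wt (purple), filled where the adjusted p is under 0.05. Hdc lies at 0.39 and 0.40 in both constructs, and Ms4a2 at -1.34 in IDH1mut against empty vector.

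Cpa3, Fcer1a, Ms4a2, Mcpt8 and Gata2 varied together beyond the 2 low arrays. Their 10 pairs had Pearson correlations of 0.873 to 0.983 over the 12 arrays and of 0.622 to 0.955 over the 10 arrays without R-2HG replicates 1 and 2. Hdc went with them over 12 arrays but not over those 10, where its correlation was -0.61 with Ms4a2, -0.34 with Cpa3, -0.17 with Gata2, 0.071 with Fcer1a and 0.17 with Mcpt8. All points share the same arrays and their groups, and these values are a description.

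For the 6 genes with the split, Pearson r over the 12 arrays is led by R-2HG replicates 1 and 2. For Tpsab1 and Il4ra those were not the lowest arrays. The genes whose values followed those of the 8 most closely, of all other named genes, are given by this r. For Cpa3 these were the ubiquitin ligase gene Nedd4 (0.990), Dennd11 (0.985), Usp24 (0.984), the adenosine kinase gene Adk (0.983) and the growth factor receptor gene Pdgfrb (0.981). Genes of antigen presentation by MHC class II came first for 3 of the 8: H2-Eb1 (0.993) and H2-Aa (0.991) for Fcer1a, H2-Eb1 (0.982) and Cd74 (0.980) for Mcpt8, and H2-Aa (0.975) and H2-Eb1 (0.971) for Gata2. H2-Eb1 stood at -1.99, -1.99 and 0.38 in R-2HG and at 0.21, 0.89 and 0.55 in IDH1wt, and so shared the high IDH1wt replicate 2 of Fcer1a and Mcpt8. Ms4a2 was followed by the cadherin gene Cdh1 (0.965) and by Csf2rb2 (0.960), Hdc by the potassium channel gene Kcnn4 (0.986) and Dennd11 (0.985), Tpsab1 by Mylk (0.886) and Gpr12 (0.868), and Il4ra by Smyd3 (0.943) and Kat5 (0.934).

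Other genes of the same cells and pathways were counted from 5 lists, to be read against 40.8% of all genes called for R-2HG against empty vector, 11.5% of them without R-2HG replicates 1 and 2, and 22.6% for IDH1mut against empty vector. R-2HG replicates 1 and 2 lay below the other 10 arrays for 3 of 15 granule and mediator genes, 2 of 15 IgE signalling genes, 5 of 13 surface receptors, 6 of 12 transcription factors and 1 of 9 genes of the interleukin-4 and interleukin-13 pathway, against 18.8% of all genes. They lay above the other 10 for 3, 1, 1, 0 and 1 genes in that order, against 15.4% of all genes. Among other granule and mediator genes (15 of 18 measured), 3 were higher and 1 lower in R-2HG against empty vector, with a median of 0.245. Alox5, which starts leukotriene synthesis, fell (-1.04 ± 0.244, adjusted p = 0.00561), while its partner Alox5ap (0.32 ± 0.0608, 0.00181) and the tryptase gene Tpsb2 (0.42 ± 0.116, 0.0128) rose. Without R-2HG replicates 1 and 2 only 1 gene of this list was called, and it was higher. The vesicular amine transporter gene Slc18a2, which loads histamine into granules and is named after its values were seen, had the split of the 6 genes, at -1.54, -2.16 and 0.84 in R-2HG. The other 2 genes of the list so placed were Alox5, at -1.32, -1.52 and -0.21, and Srgn. Srgn lay only just below the other arrays, at -0.084 and -0.086 against -0.082 in IDH1mut replicate 3. The chymase gene Cma1 and the protease gene Mcpt4 were named likewise and did not show it, with all R-2HG values between -0.16 and 0.44.

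In IgE receptor signalling (15 of 17 measured), 1 gene was higher and 2 were lower in R-2HG, and without R-2HG replicates 1 and 2 none was called and 2 had an unadjusted p under 0.05 (28.1% of all genes). The kinase genes Fyn (-0.74 ± 0.264, adjusted p = 0.0419) and Btk (-0.25 ± 0.0877, 0.0399) fell, and the adaptor gene Lat2 stood at -0.16 (0.121). In IDH1mut against empty vector, 2 were higher and 2 lower, among them Lat2 (-0.42, adjusted p = 0.00282) and Btk (-0.33, 0.0177).

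Surface receptors of these cells (13 of 15 measured) held the most calls of the 5 lists: 6 lower and 2 higher in R-2HG against empty vector, with a median of -0.514, and 2 lower without R-2HG replicates 1 and 2. Il3ra, the interleukin-3 receptor alpha chain, stood at 0.26, 0.53 and 0.63 in empty vector and at -0.53, -0.51 and -0.62 in R-2HG, so that replicate 3 lay with the other 2. It fell in both R-2HG (-1.02 ± 0.119, adjusted p = 0.000119) and IDH1mut (-0.84 ± 0.119, 0.000463). The leukotriene receptor gene Cysltr1 fell in R-2HG (-1.07 ± 0.23, adjusted p = 0.00347), and Il18r1, a chain of the interleukin-18 receptor, rose in R-2HG (0.74 ± 0.124, 0.000827) and in IDH1mut (0.40, 0.0379). Of the 13, R-2HG replicates 1 and 2 both lay below the other 10 arrays for 5, Csf2rb, Csf2rb2, Cd200r3, Cysltr1 and Cd69. Cd200r3, an activating receptor of mast cells and basophils named after its values were seen, had the array pattern of Fcer1a, with 0.077, 1.81 and 0.88 in IDH1wt and -1.70, -1.61 and 0.89 in R-2HG.

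Among transcription factors of the lineage (12 of 12 measured), 4 were lower and none higher in R-2HG against empty vector, with a median of -0.258. Without R-2HG replicates 1 and 2, 3 were lower and 1 higher. Stat5a, which acts below the interleukin-3 receptor, fell in both R-2HG (-0.90 ± 0.135, adjusted p = 0.00042) and IDH1mut (-0.70, 0.00321). The myeloid factor gene Cebpa fell in both as well (-0.40 ± 0.0768, adjusted p = 0.00167, and -0.63, 0.000181), as did Tfec (-0.56 ± 0.161, 0.0155, and -0.87, 0.00241). For Gata1, Runx1, Stat5a, Stat5b, Tal1 and Zfpm1, 6 of 12, R-2HG replicates 1 and 2 lay below the other 10 arrays. The gap was narrow for Gata1, with R-2HG replicate 1 at -1.29 and IDH1wt replicate 1 at -1.24. Stat5b stood at -0.098, -0.071 and -0.041 in R-2HG. Tal1, a partner of GATA factors named after its values were seen, stood at -3.13, -3.38 and 0.029 in R-2HG.

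In the interleukin-4 and interleukin-13 receptor pathway (9 of 11 measured), 2 genes were higher and 1 was lower in R-2HG against empty vector, and without R-2HG replicates 1 and 2 none was called and 1 had an unadjusted p under 0.05 (28.1% of all genes). The kinase gene Jak3 fell in both R-2HG (-0.36, adjusted p = 0.0123) and IDH1mut (-0.77, 0.000219). Tyk2 rose in R-2HG (0.26, adjusted p = 0.0288) and fell in IDH1mut (-0.31, 0.0226), whereas Jak1 rose in IDH1mut (0.55, 0.00114) and stood at -0.14 (0.244) in R-2HG. In IDH1wt against empty vector, none of these 5 lists had a called gene by limma, and unadjusted p-values under 0.05 numbered 3, 0, 2, 2 and 2 in the order of the lists here (16.2% of all genes). Without R-2HG replicates 1 and 2, 1 granule or mediator gene and 1 transcription factor were called higher in IDH1wt (1.51% of all genes called). In IDH1mut against empty vector the 5 lists had 1, 4, 3, 4 and 5 called genes in that order (22.6% of all genes called). Without R-2HG replicates 1 and 2 they had 2, 5, 5, 6 and 5 (23.3% of all genes called).

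**Figure D4:**
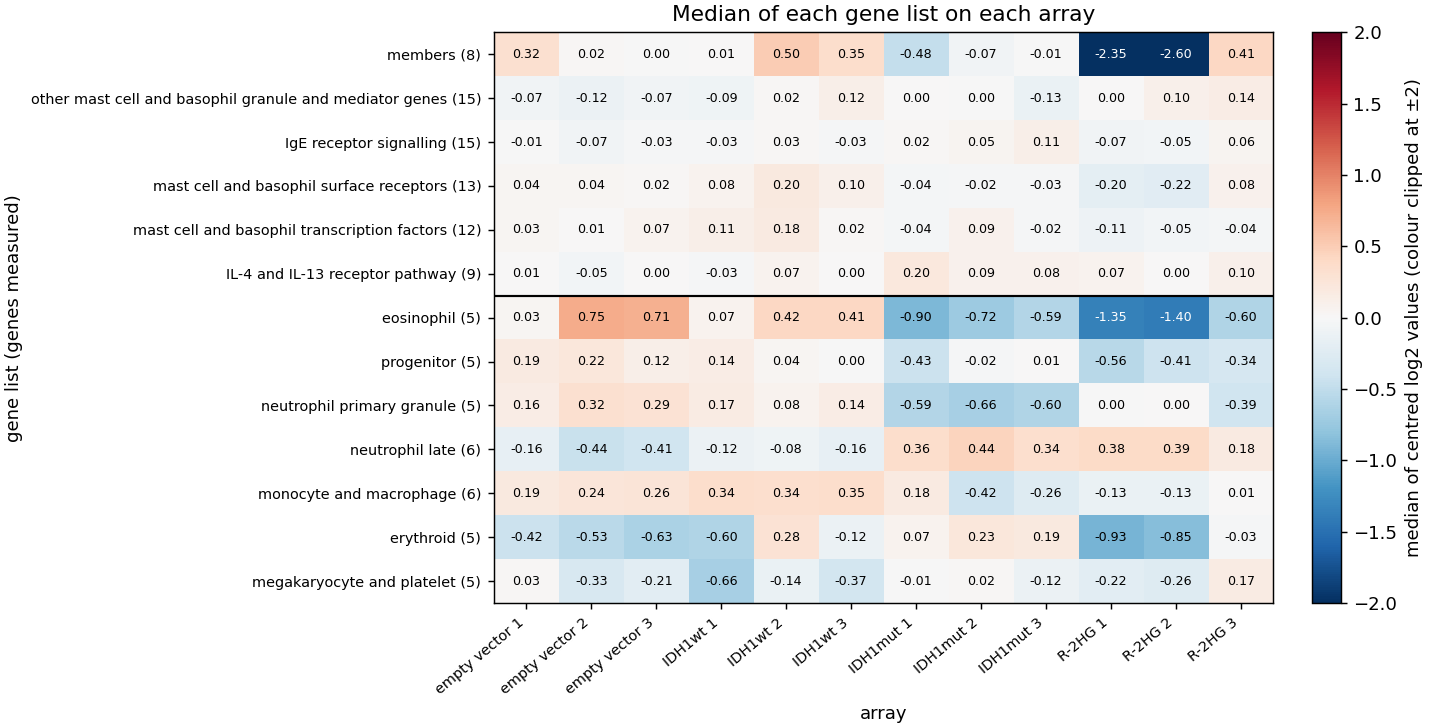
Median centred log2 value of each gene list (rows, number of measured genes in brackets) on each of the 12 arrays (columns), printed in each cell and coloured from -2 (blue) to 2 (red), with the marker lists of other cell types under the line. The 8 genes stand at -2.35, -2.60 and 0.41 on the R-2HG arrays, and the eosinophil markers at -1.35, -1.40 and -0.60.

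Markers of other cell types moved on the same arrays. Their calls are to be read against 24.3% of all genes called lower in R-2HG than in empty vector, and 25.5% without R-2HG replicate 3. In IDH1mut against empty vector, 12.1% of all genes were called lower. The 5 measured of 9 eosinophil markers had medians of -1.35, -1.40 and -0.60 in R-2HG, -0.90 to -0.59 in IDH1mut and 0.032 to 0.75 in empty vector. Of these, 4 were lower in R-2HG than in empty vector (4 without R-2HG replicate 3). Prg2, a granule protein of eosinophils named after its values were seen, stood at -4.12, -4.16 and -0.28 in R-2HG. Progenitor markers (5 of 6 measured) had medians of -0.56, -0.41 and -0.34 in R-2HG and 0.12 to 0.22 in empty vector. Late neutrophil markers (6 of 7) stood at 0.38, 0.39 and 0.18 against -0.44 to -0.16. Erythroid markers (5 of 7) had medians of -0.93, -0.86 and -0.028 in R-2HG and -0.63 to -0.42 in empty vector. For R-2HG against empty vector 1 of these was called higher and none lower, against 16.5% of all genes called higher. The median log2 fold change of the list was 0.0889. In IDH1mut, primary granule markers of neutrophils (5 of 5) stood at -0.66 to -0.59 against 0.16 to 0.32 in empty vector, beside the fall of Ms4a2, and all 5 were called lower. All 5 were called lower in R-2HG against empty vector too, with a median log2 fold change of -0.43 (2 of them without R-2HG replicate 3). Their medians were -0.004, 0.000 and -0.39 on the R-2HG arrays. Of 6 measured monocyte and macrophage markers 3 were called lower in R-2HG (3 without replicate 3) and 3 in IDH1mut. Among them was Cd14, named after its values were seen, at -1.23 (adjusted p = 0.000345) and -1.43 (0.000191). The medians of the 6 were -0.13, -0.13 and 0.006 in R-2HG and 0.19 to 0.26 in empty vector. The values are centred, so no summed level of a marker list and no marker at 0 can be given. Their part in the results on the 8 genes was not tested.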

How the data were processed

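Biotin-labelled targets from total RNA of the sorted cells were measured on 12 Affymetrix mouse arrays, per the labels. The deposited table holds log2 values of 32533 probe sets, which the authors made with RMA, per the submitters' processing notes, with no version stated. It is centred: at most 7 of 12 values of a probe set lie above 0, at most 7 below, 83.59% of probe sets hold an exact 0, and every array's median is 0. The reference of the centring is not given in the sources used here. The platform annotation gave 28805 probe sets 1 gene symbol, 757 more than 1, and 2971 no symbol. All 12 value columns belong to a sample.

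Probe sets of a gene were averaged and the gene values went into limma 3.58.1 under R 4.3.3 (lmFit, eBayes without trend), with 1 coefficient per group over 12 arrays, 8 residual and 3.96 prior degrees of freedom. All tests are two-sided, adjusted after Benjamini and Hochberg over 15858 genes, with a threshold of 0.05. A second fit covered all 28805 probe sets. The number of arrays limits the precision. The fit was tested on simulated data in which a gene's spread was the same in every group. That test does not cover the split of the R-2HG arrays. Tables were handled in Python 3.11.15 with pandas 2.3.3 and drawn with matplotlib 3.10.9.

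All 8 genes are named. From each of the 5 lists of related genes the 3 with the smallest p of an F test over the 3 contrasts against empty vector are named. Fcer1g is named as the third receptor chain. Cma1, Mcpt4, Slc18a2, Cd200r3, Tal1 and the markers Prg2 and Cd14 were chosen after their values were seen, and the genes for which R-2HG replicates 1 and 2 lay below the other arrays are named with their counts. For likeness the 5 genes most correlated with Cpa3 and the 2 most correlated with each other gene are named, without clone and predicted names. The 8 genes and the lists were chosen with earlier results of these data known. Alternatives were a second quantile normalization, other probe set summaries, a trend, array weights, a replicate block, an SD filter at the 30th percentile, a fold change of at least 1.5, fits of 6 arrays and arrays left out. The counts of the lists without some R-2HG arrays were added after seeing the data.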

Additional observations from a re-analysis of the deposited data

How the results depend on the processing

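With all 12 arrays, 2 of the 8 genes were called for R-2HG against empty vector, 0 for IDH1mut against empty vector, 0 for IDH1wt against empty vector, 0 for IDH1mut against IDH1wt, 2 for IDH1mut against R-2HG and 4 for R-2HG against IDH1wt. In that order, leaving out 1 array gave 0 to 6, 0 to 2, 0 to 1, 0 to 3, 1 to 6 and 1 to 6. Leaving out R-2HG replicates 1 and 2 together gave 0, 2, 1, 2, 2 and 1 (11.5%, 23.3%, 1.51%, 16.2%, 2.12% and 10.2% of all genes), with the lone R-2HG array assumed to vary like the other groups, and fits of the 6 arrays of a comparison gave 0, 2, 1, 0, 1 and 1 (38.1%, 22.2%, 1.78%, 11.6%, 26.6% and 38% of all genes). Array weights, which were 0.337 for R-2HG replicate 3 and 2.17 and 1.44 for replicates 1 and 2, gave 7, 0, 0, 0, 6 and 6, where 57.9%, 48.5% and 56.1% of all genes were called in the first comparison, the fifth and the sixth, against 40.8%, 36% and 44.4% without weights. A trend gave 1, 0, 0, 0, 1 and 3 (41.3%, 36.3% and 44.6% of all genes in those 3 comparisons), without a call of Cpa3 in any comparison (adjusted p of 0.568, 0.61 and 0.55 in the 3 with R-2HG). The trend runs on the mean of centred values, which is no level. Quantile normalization gave 2, 0, 0, 0, 1 and 4 (37.3%, 28.8% and 40% of all genes). In the first comparison it moved Cpa3 from -4.35 to -2.27, Hdc from -1.84 to -0.87 and Gata2 from -0.73 to -0.18, and Cpa3 missed its call in the fifth (1.73, adjusted p = 0.098). The probe set with the highest SD gave 3, 0, 0, 0, 3 and 5 (45.7%, 40% and 47.5% of all genes), the SD filter 3, 0, 0, 0, 2 and 5 (52%, 45.5% and 56.7% of the genes kept), and a fold change of at least 1.5 gave 2, 0, 0, 0, 2 and 4 (10.3%, 6.5% and 10.6%). The causes of these changes were not tested. No pairing by replicate number was seen: deviations of same-numbered samples correlated at -0.152 to 0.124, and only 1 of 18 pairs was over 0.1. With so few arrays per group, these values cannot exclude a pairing. With the replicate block, 3, 0, 0, 0, 2 and 5 genes were called (39%, 33.7% and 42.7% of all genes). It added Fcer1a in the first comparison (adjusted p = 0.0449) and Gata2 in the last (0.0448) and changed no other call of the 8 genes.

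Directions turned as follows, all on the log2 scale. For R-2HG against empty vector, leaving out R-2HG replicates 1 and 2 gave Cpa3 0.11, Fcer1a 0.58, Ms4a2 0.74, Mcpt8 0.89 and Gata2 0.59. Il4ra was 0.19 at the probe set with the highest SD, 1447858_x_at, and Tpsab1 was 0.043 with array weights. For IDH1mut against IDH1wt, Hdc was -0.042 after quantile normalization and -0.047 at 1454713_s_at, its probe set with the highest SD, and Tpsab1 was 0.010 with array weights. For IDH1mut against R-2HG, quantile normalization gave Ms4a2 -0.55 and Gata2 -0.00565. Leaving out R-2HG replicates 1 and 2 gave Cpa3 -0.55, Fcer1a -0.88, Ms4a2 -2.08, Mcpt8 -1.09, Gata2 -0.74 and Tpsab1 0.10, and Il4ra was 0.18 at 1421034_a_at and 0.13 at 1423996_a_at. For R-2HG against IDH1wt, leaving them out gave Cpa3 0.054, Ms4a2 0.94, Gata2 0.30, Tpsab1 -0.12 and Il4ra 0.020, and Il4ra was 0.0052 after quantile normalization and 0.35 at 1447858_x_at. Leaving out 1 array turned Tpsab1 for R-2HG against empty vector (-0.21 to 0.045) and, for IDH1mut against empty vector, Fcer1a (-0.49 to 0.035) and Gata2 (-0.25 to 0.014). For IDH1wt against empty vector it turned Cpa3 (-0.11 to 0.18) and Ms4a2 (-0.52 to 0.094), and for IDH1mut against IDH1wt Hdc (-0.046 to 0.037) and Tpsab1 (-0.067 to 0.083). For IDH1mut against R-2HG it turned Ms4a2 (-0.25 to 1.69) and Il4ra (-0.12 to 0.034). Of 378 values of single genes under the other settings 314 kept direction and call, and of 576 with 1 array left out 528 did.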
